A study of Mus musculus with 2 samples.

Results

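The regions described here are the peaks of a BUD31 RNA immunoprecipitation that the authors placed outside genes. They are the 802 peaks of the deposited list that were classed as intergenic, upstream or downstream and whose named gene is protein-coding. They are 4.91% of all 16331 peaks and 5.57% of the 14411 peaks that name a coding gene. By class 671 were intergenic (83.7%), 113 downstream (14.1%) and 18 upstream (2.24%). Together they cover 1.92 Mb and name 434 genes. Another 466 peaks of these classes name noncoding genes and were not counted.

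The assay was RIP-seq, in which RNA bound to a protein is recovered with an antibody and sequenced. The cells were germ cells from the testes of C57BL/6J mice on postnatal day 14, released enzymatically as single cells. There was 1 library of RNA recovered with anti-BUD31 and 1 of input RNA, for which 10% of total RNA was kept; the sources used here do not say whether animals were pooled. There is 1 peak list, of the BUD31 RIP, and how the input was used for it is not given. It holds positions and gene names and no read count, fold, score or strand, so depth is unknown and no p-value was computed. Intervals on shares below are Wilson 95% intervals over peaks or genes. Those on medians are 95% intervals from the ranked values. Both cover counting error only.

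BUD31 is a protein of the spliceosome, the machine that removes introns from precursor RNA. RNA polymerase II does not stop at the cleavage and polyadenylation site of a gene: it continues into the flanking DNA before it terminates, and the RNA made there is normally short-lived. RNA from outside annotated genes can therefore be the continuation of a gene, the product of a gene missing from the annotation, or part of a longer host transcript. A list without strand cannot tell these apart, and the values below describe position only.

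Upstream peaks are shown first by sequence because 15 of the 18 overlap the gene they name, so that a gene's start can lie inside them. RefSeq start windows (GRCm38.p6, which is the mm10 assembly) lay wholly inside 16 of the 802 peaks, with 19 windows of 18 genes, and the 250 bases before the start are given for the 4 narrowest upstream peaks that hold one. Gm14692 has no other peak, Slc35a2 encodes the UDP-galactose transporter, Txlng encodes gamma-taxilin and Ikbke encodes a kinase of innate immune signalling. Capitals mark AATAAA, the canonical polyadenylation signal.
Gm14692, chrX:67695448-67695697, plus strand: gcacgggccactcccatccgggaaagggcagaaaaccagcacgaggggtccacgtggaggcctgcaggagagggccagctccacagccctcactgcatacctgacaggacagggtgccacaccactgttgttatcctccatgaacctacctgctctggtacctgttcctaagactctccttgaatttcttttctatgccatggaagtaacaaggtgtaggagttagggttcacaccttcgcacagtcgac
Slc35a2, chrX:7883994-7884243, plus strand: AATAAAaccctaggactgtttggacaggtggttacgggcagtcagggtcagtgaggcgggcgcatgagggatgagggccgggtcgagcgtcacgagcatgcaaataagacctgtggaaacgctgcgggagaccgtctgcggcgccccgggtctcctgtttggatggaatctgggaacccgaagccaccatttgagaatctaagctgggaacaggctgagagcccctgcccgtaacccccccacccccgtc
Txlng, chrX:162829455-162829704, minus strand: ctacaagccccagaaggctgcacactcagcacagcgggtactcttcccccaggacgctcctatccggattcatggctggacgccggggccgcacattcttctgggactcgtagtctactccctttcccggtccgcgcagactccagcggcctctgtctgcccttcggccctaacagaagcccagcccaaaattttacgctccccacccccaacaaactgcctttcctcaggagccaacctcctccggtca
Ikbke, chr1:131279564-131279813, minus strand: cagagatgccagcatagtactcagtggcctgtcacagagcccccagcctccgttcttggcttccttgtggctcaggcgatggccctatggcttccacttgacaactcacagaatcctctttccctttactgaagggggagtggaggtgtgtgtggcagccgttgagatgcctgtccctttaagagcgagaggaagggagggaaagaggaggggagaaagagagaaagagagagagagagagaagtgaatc
The peaks around these windows were 1150 bp (Gm14692), 2760 bp (Slc35a2), 1380 bp (Txlng) and 1230 bp (Ikbke) wide. Searched on both strands, the letters GTAAGT, a consensus 5′ splice site, were in 0 of the 19 windows and in 6.31% of all 32851 RefSeq windows. TATAAA was in 0 of 19 and in 12.4% of all windows. AATAAA was in 2 of 19 (10.5%) and in 18.1% of all. The median GC content of the 19 windows was 60.8% (43.6% to 70.8%) and that of all windows 52.4%. These are matches of letters, not mapped sites. The sequences of the peaks themselves were not analysed here.

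For most peaks the authors' class matched the position of the peak's centre. Of 129 upstream and downstream peaks with a matched gene, 117 (90.7%) had their centre 1 to 1000 bp past the gene's end, and 637 of 659 matched intergenic peaks (96.7%) had it more than 1000 bp away. A wide peak could therefore be classed outside a gene that it covers in part. Of the 788 peaks whose gene matched the reference table, 141 (17.9%, 15.4% to 20.7%) overlapped that gene, namely 81 of 111 downstream peaks, 15 of 18 upstream peaks and 45 of 659 intergenic peaks. Another 54 (6.85%) overlapped only a different gene and 593 (75.3%, 72.1% to 78.1%) overlapped none. Of the 141 that overlapped the named gene, 109 (77.3%) had their centre outside it. These were 71 of 81 downstream, 13 of 15 upstream and 25 of 45 intergenic peaks (55.6%), so the class did not always follow the centre. The 5 genes that did not match, with 14 peaks, were left out of every count that needs a gene's position.

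Most named genes also carried peaks inside their body, that is peaks classed as intron, exon or UTR. This held for 284 of the 434 named genes (65.4%, 60.8% to 69.8%). The share of all 9390 coding genes on the same chromosomes with a body peak was 27.6%. On chromosome X it was 101 of 145 named genes (69.7%) against 44.3% of all coding genes, and on autosomes 182 of 287 (63.4%) against 26.4%. The named genes are mostly those whose start lies nearest a peak, so the 2 shares are set side by side as a description. Body peaks were also spread unevenly over chromosomes. They covered 17.8% of gene length on X, 12.3% on chromosome 12 and 9.79% on chromosome 1, but 0.609% on 8 and 0.194% on 2. Chromosome 1 held 73 of the named genes and chromosome 2 held 3. The part of this in the difference between the shares was not tested. Where a body peak was present the number per gene was alike, with a median of 3 in 282 named genes and 3 in 2305 genes not named here.

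By class the named gene had a body peak for 88 of 113 downstream peaks (77.9%), 15 of 18 upstream peaks (83.3%) and 414 of 671 intergenic peaks (61.7%, 58.0% to 65.3%). The gene with the most body peaks was Rasal2, a Ras GTPase-activating protein. It had 88 over 49.1% of its length and 2 downstream peaks of 205 bp each, 428 and 838 bp past its 3′ end. Gphn, the scaffold protein gephyrin, had 53 and Enah, an actin regulator, had 49, each with 1 peak that was classed intergenic although it lies wholly within the gene's reference extent, of 2870 and 615 bp. Rfwd2, an E3 ubiquitin ligase, had 48 and 3 peaks past its 3′ end, at 854, 4134 and 6184 bp. Mageb18, of the X-linked MAGE family, had 45 body peaks, but its 7 outside peaks lay 33849 to 75249 bp before its start.

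Close to genes the peaks lay mostly past the 3′ end. For this the nearest coding gene was taken by edge, whatever the authors named, over the 498 peaks that overlap no gene and whose nearest gene has a known strand. Strand was missing for the genes of chromosome 18, which held 39 outside peaks, and for some others, such as Gm715, named by 20. No 3′ or 5′ count, here or below, includes a peak measured against such a gene. Within 1 kb 53 of 64 peaks (82.8%, 71.8% to 90.1%) were on the 3′ side. The share was 68.3% at 1 to 5 kb (97 of 142), 58.6% at 5 to 10 kb (41 of 70), 43.5% at 10 to 50 kb (77 of 177) and 26.7% (16.0% to 41.0%) beyond 50 kb (12 of 45). Within 5 kb it was 150 of 206 (72.8%, 66.4% to 78.4%). Peaks of one locus share their source: the 498 peaks have 268 nearest genes, and the 45 beyond 50 kb have only 19. By the authors' own classes downstream peaks outnumbered upstream ones, 113 to 18.

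**Figure D1:**
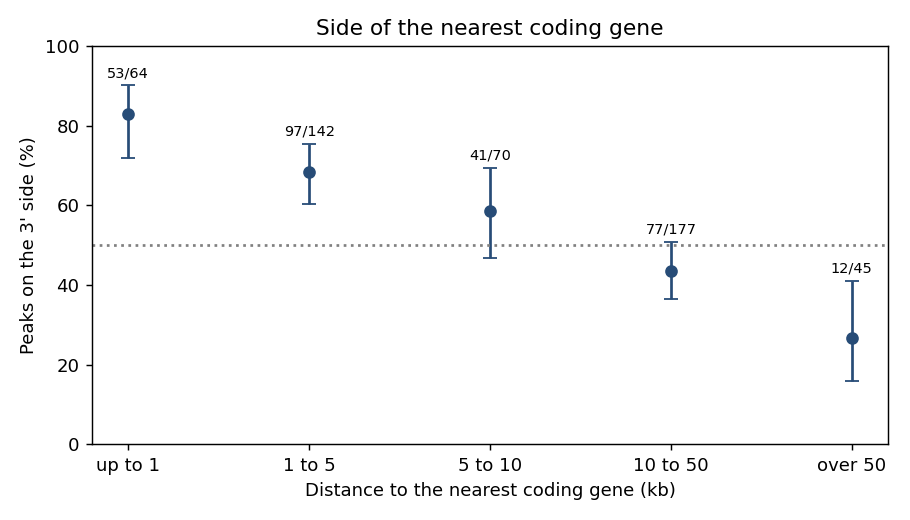
Percent of peaks on the 3′ side of the nearest coding gene (y axis) by distance to that gene in kb (x axis), with the count over each point; bars are Wilson 95% intervals and the dotted line is an even split. The share goes from 82.8% within 1 kb to 26.7% beyond 50 kb.

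Measured against the gene the authors named, the 3′ side held 218 of 534 peaks (40.8%, 36.7% to 45.0%). Within 1 kb of the named gene it held 41 of 53 (77.4%). The name followed the nearest coding start for 501 of 534 peaks (93.8%) and the nearest coding edge for 485 of 647. A peak past the 3′ end of one gene can thus carry the name of the next gene, whose start is nearer. For the 593 peaks over no gene, the named gene had a body peak for 380 (64.1%) and the nearest coding gene for 425 (71.7%, 67.9% to 75.1%).

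Distances to the named gene were long. Over the 647 peaks outside it the median was 12952 bp (interval 10040 to 15452), the middle 50% ran from 3281 to 32845 bp and the farthest was 509244 bp away. Within 10 kb lay 298 (46.1%) and beyond 50 kb 98 (15.1%). The median was 21165 bp on chromosome X and 7042 bp on autosomes. It was 9299.5 bp for genes with a body peak and 18722 bp for genes without.

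Peaks were then chained with any other peak at gaps of up to 5 kb, to ask which of them continue the peaks of a gene. Such a chain reached a body peak of the named gene for 201 of 802 (25.1%, 22.2% to 28.2%), only a body peak of another gene for 88 (11.0%) and no body peak for 513 (64.0%). The share joined to the named gene depended on the gap allowed: it was 13.1% at 2 kb and 35.4% at 10 kb. For genes with body peaks the chain was formed for 86 of 132 peaks on the 3′ side (65.2%, 56.7% to 72.7%) and 37 of 224 on the 5′ side (16.5%, 12.2% to 21.9%). The 2 sides were not matched for distance. At 10 to 50 kb from the named gene lay 33 of these 3′ peaks and 93 of the 5′ peaks, and beyond 50 kb 2 and 47. The part of distance in the 2 shares was not tested. Chained peaks reached a median of 3017 bp past the 3′ end in 56 genes and 4054 bp before the start in 27 genes.

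The longest 3′ chain was that of Bhlhb9 on chromosome X, which reached 39.4 kb past the gene. Its first peak, chrX:135889981-135904930, was 14950 bp wide and overlapped the last 1101 bp of the gene, and 4 more of 690, 6900, 3680 and 8050 bp followed, the last ending at 135930460. The gene itself had 1 body peak. Siah1b, an E3 ubiquitin ligase of chromosome X, also had 1 body peak, and 4 peaks of 5060, 1380, 3910 and 920 bp began 893, 6413, 9173 and 17453 bp past its end. Both genes thus had 1 peak within and 4 or more at or beyond the annotated end.

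Phka2, a regulatory subunit of phosphorylase kinase, had 18 body peaks, 1 downstream peak of 1380 bp across its end and 6 intergenic peaks of 920 to 2760 bp, out to 19.8 kb. The last 4 of these lay closer to the 3′ end of the next gene, Ppef1, at 3759 to 9509 bp from it, and Ppef1 had 4 body peaks. Tc2n on chromosome 12 had 17 body peaks and a peak of 11890 bp that began 91 bp past its end. A second peak, of 4305 bp, lay 12801 bp past Tc2n and 2332 bp from the 3′ end of Catsperb, a subunit of the sperm calcium channel, which had 39 body peaks. Without strand these convergent genes cannot be told apart as the source.

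Mael, a protein of the piRNA pathway that silences transposons in germ cells, had 10 body peaks and 4 peaks at its 3′ end on chromosome 1. A downstream peak of 820 bp overlapped the gene by 111 bp, and intergenic peaks of 1845, 820 and 1230 bp followed at 1325, 3375 and 8705 bp, the last reaching 9.93 kb past the gene. The gene 1700019A02Rik reached 17.0 kb with 3 peaks, Mageb4 12.2 kb with 1 and Wdr13 8.44 kb with 2. For Pvrig, at 14.3 kb, both peaks that the authors class inside the gene lie outside its extent in the reference table. The 5′ chains were led by Gm36049 (21.4 kb), Scly, a selenocysteine lyase (12.4 kb), Zmat1 (12.1 kb) and Sp4, a zinc finger transcription factor with 20 body peaks (9.8 kb). The peak of Scly also overlapped the pseudogene Gm7785 and an end of Ube2f, a gene with 6 peaks of its own. The peaks of Gm36049 began 1769 bp from LOC108168453 (now Gm15262), which had 7 body peaks. Without strand the source of the Scly and Gm36049 peaks cannot be told.

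**Figure D2:**
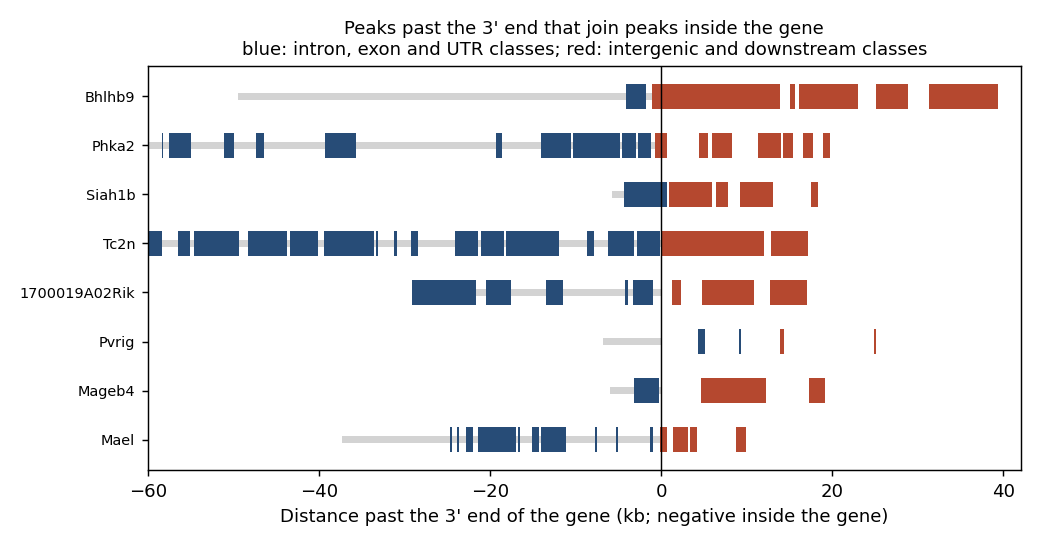
Peaks at the 3′ end of the 8 genes with the longest 3′ chains, by distance past the gene's end in kb (x axis, transcription to the right); grey is the gene, cut at 60 kb. Red intergenic and downstream peaks run on from blue body peaks, to 39.4 kb in Bhlhb9, and the blue peaks of Pvrig lie outside its extent.

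Neighbouring peaks formed runs. With gaps of up to 5 kb between them, 126 runs of at least 2 held 389 of the 802 peaks (48.5%, 45.1% to 52.0%) and 413 stood alone. The median run spanned 6935 bp and 66.7% of it was covered. There were 16 runs of 5 or more, with 115 peaks, of which 12 lay on chromosome X. Within runs 215 of 263 neighbouring pairs (81.7%) had consecutive running numbers, and at the other 48 pairs the skipped numbers are absent from the whole list. On chromosome X 58.0% of peaks were in runs (52.8% to 63.0%) and on autosomes 41.1% (36.6% to 45.8%).

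The longest run, 11 peaks over chrX:10417161-10470980, named Tspan7, a tetraspanin of the cell membrane. It spanned 53820 bp, of which 65.4% was covered by peaks of 690 to 12420 bp, and ended 14136 bp before the start of Tspan7, which had 3 body peaks. A run of 8 peaks over 50370 bp named Dgkk, a diacylglycerol kinase, but ended 87686 bp before it. On its other side it began 3797 bp past the 3′ end of Shroom4, a cytoskeletal regulator with 17 body peaks against 2 in Dgkk. The 6 peaks that named Tex16 and 4933403O08Rik spanned 34960 bp between these genes, which had 22 and 17 body peaks and lie in the same direction. The first overlapped the end of Tex16.

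On chromosome 12 a run of 12 peaks over 38335 bp named Gpr65, a proton-sensing receptor that had no body peak and whose end lay 95809 bp away. The run lay 18567 bp past the 3′ end of Kcnk10, a potassium channel, which itself carried the widest downstream peak, 17015 bp across its 3′ end, and 3 body peaks. On chromosome 1, a run of 4 peaks of 2460 to 13325 bp named Gm597 and covered 94.9% of 40590 bp, the nearest 8062 bp past its 3′ end; Gm597 had no body peak. A run that named Myoc, a secreted protein with no body peak, and Vamp4, a vesicle SNARE, began 154 bp past Vamp4, which had 11. So a run could carry the name of a gene without body peaks beside a neighbour that had them. Other runs had no such neighbour close by. The 8 peaks of Klhl4, a kelch-like protein, spanned 38410 bp and lay 66813 bp before that gene, which had 1 body peak. On the other side of the run Dach2, with 2 body peaks, lay 532725 bp away.

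**Figure D3:**
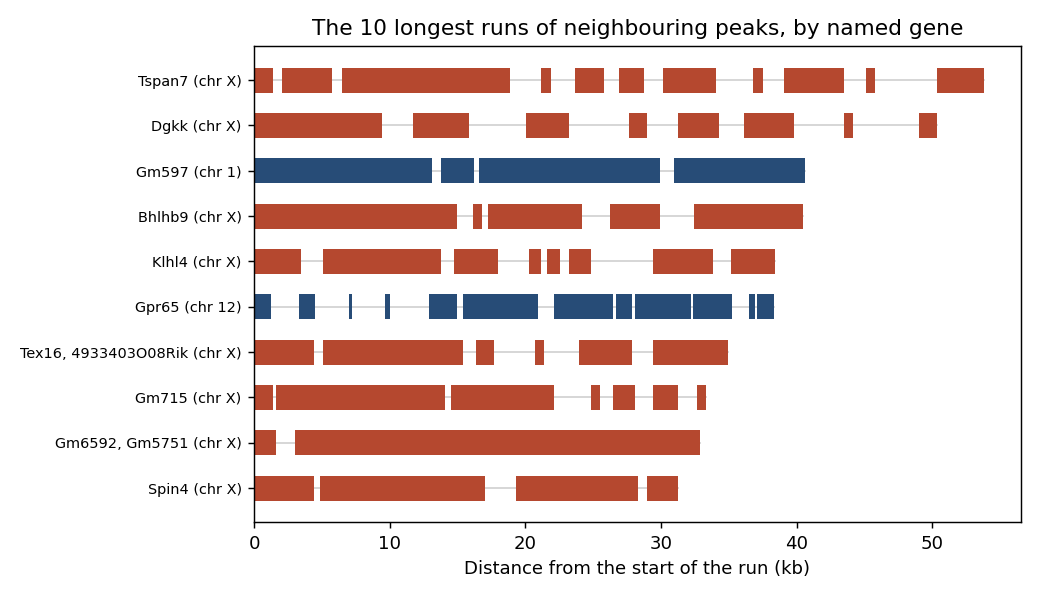
The 10 longest runs of neighbouring peaks, labelled by named gene, with distance in kb from the start of the run in genome order (x axis). Red bars are peaks on chromosome X and blue bars peaks on autosomes; the runs span 53820 bp (Tspan7) to 31280 bp (Spin4), and 8 of the 10 are on X.

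Few genes held many of the peaks. Of the 434 genes 299 (68.9%) had 1, and 29 with at least 5, 18 of them X-linked, held 232 peaks (28.9%). Gm715 and Klhl4 had 20 each, Dgkk 13, Gpr65 and Tspan7 12, Mageb4 10, Cd55 and Gm597 9, and C77370 and LOC108168453 8. Of the 29 genes 16 (55.2%, 37.5% to 71.6%) had a body peak. Among those with many outside peaks and none in the body were Gm715, Gpr65, Cd55, Gm597 and, with 7, Myoc. Cd55, a complement regulator, had 1 peak of 1230 bp within its reference extent although classed intergenic. The other 8 lay 682 to 21797 bp before its start, the widest 10660 bp. C77370 and Abl2, a tyrosine kinase, combined 8 and 7 outside peaks with 15 and 30 body peaks.

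The X chromosome held 355 of the 802 peaks (44.3%, 40.9% to 47.7%), against 19.6% of the 12187 intron peaks of coding genes. The whole list had peaks only on chromosomes 1, 2, 4, 5, 8, 10, 11, 12, 15, 16, 17, 18, 19, X and Y. No other autosome had any, so these shares are not genome-wide. Chromosomes 4, 11 and 19 had 2, 1 and 6 peaks of any kind. Of X peaks naming a coding gene 11.8% were outside (10.7% to 13%), compared with 3.15% on chromosome 1 (2.67% to 3.71%), 4.64% on chromosome 5, 7.06% on chromosome 16 (5.33% to 9.28%) and 7.96% on chromosome 8, whose interval of 5.10% to 12.2% holds the X value. Per Mb outside coding and noncoding genes there were 2.46 peaks over no gene on X, 1.03 on chromosome 5 and 0.859 on chromosome 1. An outside peak named 141 of 966 X-linked coding genes (14.6%) and 4.54% of coding genes over all chromosomes with such peaks. Chromosomes 1, 5, 12, 16, 18, 10, 8, 2 and Y held 136, 106, 65, 46, 39, 28, 18, 7 and 2, and there were none on 15 and 17 among 74 and 53 peaks. The list kept unequal parts of its numbering: of the running numbers from the first to the last peak of a chromosome, 66.8% are present on X, 42.4% on chromosome 12, 43.3% on 18, 30.5% on 16, 29.9% on 1, 27.6% on 5, 20.2% on 10 and 5.46% on 8. On some other chromosomes it kept more than on X, with 89.5% on 2, 73.2% on 17 and 100% on 15 and Y. The part of this in the X share was not tested.

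**Figure D4:**
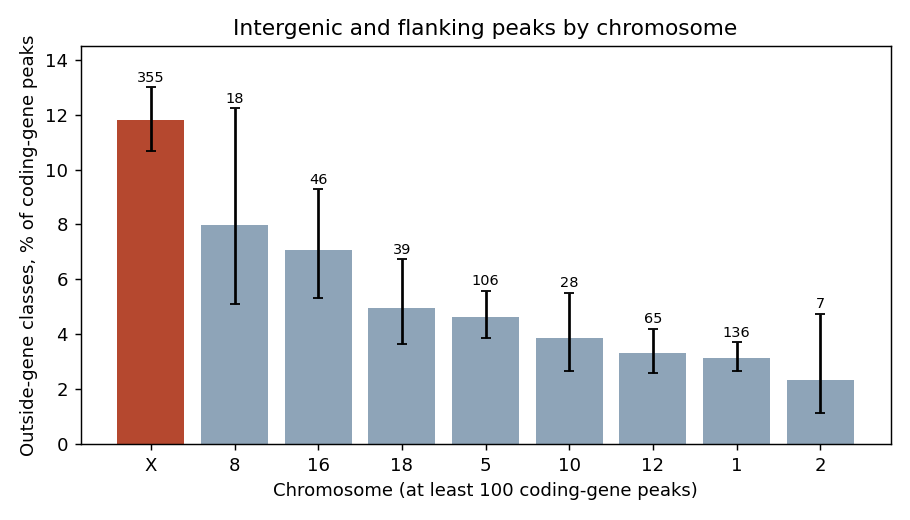
Peaks classed intergenic, upstream or downstream as a percent of all peaks naming a coding gene (y axis, bars with Wilson 95% intervals), for chromosomes with at least 100 such peaks; numbers over the bars count the outside peaks. Chromosome X stands at 11.8% and chromosome 1 at 3.15%.

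Outside peaks were about as wide as intron peaks except on some chromosomes. Their median was 1380 bp (1230 to 1400), the middle 50% ran from 690 to 2790 bp and the whole range from 200 to 29900 bp. Coding introns had a median of 1400 bp, exons 1200 bp and 3′ UTRs 1230 bp. On X the medians were 1380 bp outside (1380 to 1610) and 2070 bp in introns (1840 to 2070), on chromosome 12 1640 and 2460 bp, and on chromosome 18 2400 and 3600 bp. On chromosome 1 they were 1127.5 and 1025 bp and on chromosome 5 1000 and 800 bp. Positions come in fixed bins of 200 to 230 bp, and 76 of 800 peaks (9.5%) were 1 bin wide, against 13.1% in introns. Peaks that overlap their named gene had a median of 2530 bp, those on its 3′ side 1087.5 bp and those on its 5′ side 1230 bp.

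**Figure D5:**
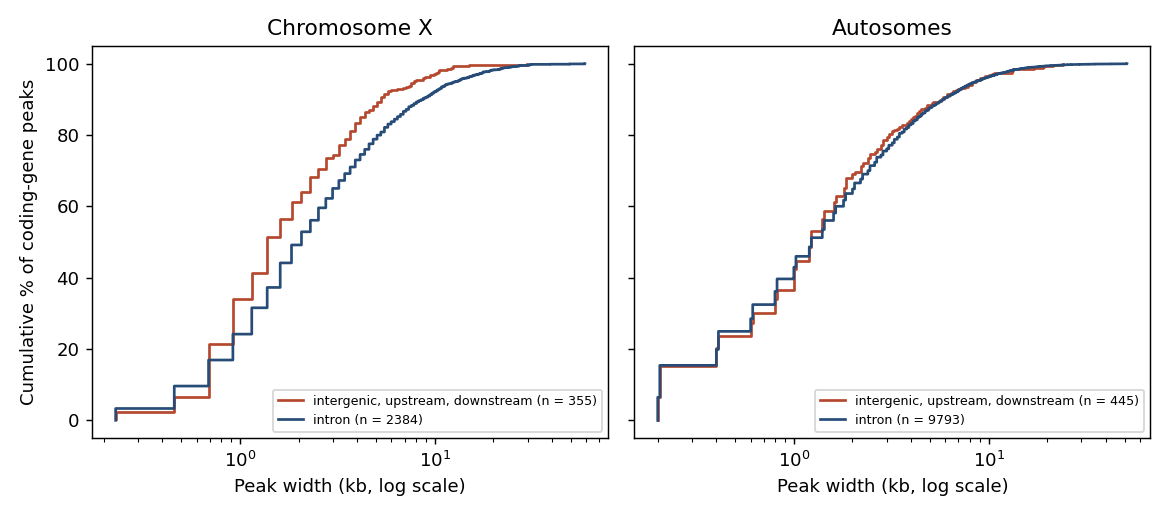
Cumulative percent of peaks (y axis) by width in kb on a log scale (x axis), for outside peaks (red) and intron peaks (blue) of coding genes on chromosome X and on autosomes. On X the outside peaks are narrower, with medians of 1380 and 2070 bp, and on autosomes the curves lie close together.

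Of the 5 widest peaks 4 overlapped a gene, but most of their length lay beyond any 1 gene. A peak of 29900 bp on chromosome X, chrX:8853391-8883290, covered all 4318 bp of its named gene Gm5751, which is 14.4% of the peak. On chromosome 18 a peak of 24200 bp named LOC108168393 and overlapped 3710 bp at an end of Pias2, a SUMO ligase with 14 body peaks. Also on chromosome 18, a peak of 23400 bp covered the 1378 bp of Igip, and one of 19200 bp named Eif4ebp3, a translation repressor, and overlapped Ankhd1, Sra1 and Apbb3. The peak of 21400 bp that named Gnal, a G protein alpha subunit, lay 36698 bp from it over no gene. Among upstream peaks the widest were 19000 bp at Poln, a DNA polymerase, which also overlapped Haus3 and Mxd4, and 9600 bp at Napepld, a phospholipase of endocannabinoid synthesis; Ccdc28a had one of 4400 bp and Il17f, a cytokine, one of 3075 bp. Among downstream peaks, besides that of Kcnk10, wide ones lay at Nop58, a core protein of snoRNA particles (9430 bp), Nr3c1, the glucocorticoid receptor (8600 bp), and Rimbp3, a spermatid protein (7800 bp).

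Of the 54 peaks that overlapped only another gene, 23 lay over pseudogenes, 22 over coding genes and 7 over long noncoding RNA genes. All 6 peaks that named Prdx6, a peroxiredoxin with 2 body peaks, lay over the pseudogene Gm6185, 3102 to 42052 bp from Prdx6. Of the 5 that named Cxcr3, a chemokine receptor with no body peak, 3 lay over Gm52429. Both peaks on the 3′ side of Serpinc1, which encodes the liver protein antithrombin and had no body peak, lay in Zbtb37, a zinc finger gene with 9. Of the 4 peaks that named Catsperb 2 lay over the pseudogene Gm18795, and of the 3 that named Actb, cytoplasmic beta-actin, 2 lay over the long noncoding RNA Gm38733. Outside the 54, because the named gene had no match, A26c3 held all 5 peaks that named Gm13941, and Cfap47 and Gm5953 held 2 each. Positions in pseudogenes and gene families are uncertain, since a read may match several near-identical copies.

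Lists of testis and RNA-processing genes held few of the named genes by count. Each share is read against the 4.54% of all coding genes. It was 11.6% for splicing, 11.1% for spermatid, 7.69% for piRNA pathway, 6.45% for meiotic prophase and 6.38% for ribosomal protein genes. These shares are above 4.54%, but each rests on 5 genes or fewer. Of 31 meiotic prophase genes 2 had an outside peak: Scml2, a germline Polycomb protein with 36 body peaks, had 1 of 1150 bp across its 3′ end, and Stag3, a meiotic cohesin with 3, had 1 of 1400 bp 5204 bp past it. Mael was the only one of 13 piRNA pathway genes. Of 18 spermatid genes there were 2, both without a body peak. Akap4, the main protein of the sperm fibrous sheath, had 3 peaks of 920 to 1380 bp, 41502 to 67492 bp past its 3′ end and closer to the 3′ end of Clcn5, which had 19 body peaks. The 4400 bp downstream peak of Tnp2, a transition protein of spermatid chromatin, covered the gene and the start of Socs1.

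X- and Y-linked testis families had an outside peak in 13 of 85 genes (15.3%), beside the 14.6% of X-linked genes. Mageb4 had 10, Mageb18 and Tex13 (now Tex13b) 7 each, and Nxf7, an RNA export factor relative, 6 that lay 2145 to 27215 bp past its 3′ end with no body peak. Of 43 splicing genes 5 had one. Snrpe, a core protein of small nuclear ribonucleoproteins, had 3 of 205 to 1230 bp, 1751 to 7286 bp before its start, the farthest 2092 bp past the 3′ end of Zc3h11a with 10 body peaks. Rbm25, a splicing regulator, had 2 at 8403 and 12298 bp before its start. Clk1, a kinase of splicing factors, had 1 of 2665 bp, and Dhx15, a helicase of spliceosome disassembly, 1 of 5600 bp across its end.

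Ribosomal protein genes had an outside peak in 3 of 47: Rpl10l, 5444 bp past its 3′ end, Rpl39l, 2490 bp past it, and Rpl37a, across it. In a list of 33 genes with long intergenic neighbourhoods, mostly neuronal, Htr2c, a serotonin receptor, had a peak of 460 bp that lay 407844 bp away. Transcription termination and 3′ end processing genes had 0 of 25, although 13 had body peaks, and germ cell RNA-binding proteins 0 of 12. Spermatogonia markers had 0 of 11 (undifferentiated) and 0 of 7 (differentiating). Markers of other testis cells had none either, in 14 Sertoli, 5 Leydig, 6 peritubular myoid, 10 macrophage, 7 endothelial and 5 erythroid genes. At 4.54% lists this short would hold very few genes, so a count of 0 is not read as a lack. Body peaks were in 16 of the 31 meiotic and 7 of the 13 piRNA genes, in 3 of the 11 and 3 of the 7 spermatogonia markers and in 1 of the 18 spermatid genes. They were in 4 of the 14 Sertoli, 2 of the 6 myoid, 1 of the 5 Leydig, 1 of the 5 erythroid and 0 of the macrophage and endothelial genes, beside 27.6% of all coding genes. Among the other lists they were in 22 of 43 splicing, 13 of 25 termination and 3′ end processing and 5 of 12 germ cell RNA-binding genes. Ribosomal protein genes had them in 3 of 47. A share like that of the meiotic genes was thus not particular to germ cell lists, and these counts do not check the germ cell label.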

How the data were processed

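The deposited values are positions: for each peak a running number, chromosome, start, end, class, gene and kind of gene, per the file headers. The submitters' processing notes name TopHat2 2.0.13 and the mm10 build. How the peaks were called, at what threshold, with what use of the input and strand, and on which annotation release, is not given in the sources used here. Gene extents came from RefSeq (GRCm38.p6, 1-based), matched by gene number, and strand from its start windows, where present. A body peak is any peak of the named gene in another class. Overlap means at least 1 bp. Intervals are Wilson 95% for shares and 95% from the ranked values (order statistics) for medians. Functions were tested on simulated intervals. The members and gene lists were chosen with earlier results of these data known. Named genes are those with most peaks, longest runs, widest peaks, most or no body peaks, list members and overlapped genes; some genes falling under this rule are not reported here. Python 3.11.15, numpy 2.4.6, pandas 2.3.3, scipy 1.17.1 and matplotlib 3.10.9 were used. Chains, the nearest gene by edge and 9 alternatives were chosen after seeing the data.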

Additional observations from a re-analysis of the deposited data

How the results depend on the processing

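Over 10 results, 12 of 28 alternatives stayed within the counting interval (for the number of peaks, within 1.5 times) and 16 moved beyond it; the cause was not tested. Naming genes of all kinds gave 1268 peaks, and keeping peaks no narrower than the median of their chromosome gave 388, with 57.2% of named genes having body peaks and 39.7% of peaks on X. Gaps of 2 and 10 kb gave 36.2% and 57.7% in runs and 13.1% and 35.4% joined to a body peak of the named gene. Overlap with a gene fell from 24.7% to 8.88% when 50% of the peak was required and to 20.8% for coding genes only. Of the peaks outside the named gene 32.1% lay within 5 kb and 84.9% within 50 kb, and 59.6% of autosomal ones within 10 kb. The 3′ share by named gene was 52.6% within 10 kb, 45.1% with the nearest peak of each gene, and 60.2% within 5 kb, against 72.8% by nearest gene. That 72.8% was 71.8% to 74.1% on X, on autosomes, among wide peaks and with each gene counted once. No paired analysis was possible because each group has 1 library and there is 1 list. Depth is unknown, so an absent peak does not show absent RNA.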
